A study of Mus musculus with 12 samples.

Results

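The 9 genes Pax3, Pax7, Six2, Six4, Six5, Eya1, Eya2, Eya3 and Eya4 were examined for open chromatin in C2C12 cells, an established line of mouse myoblasts. A peak was joined to a gene if the middle of its interval fell on the gene body or no more than 10 kb away. By this rule the genes held 24 of the 34118 peaks of the wild-type (WT) list and 19 of the 27187 peaks of the Runx1 knockout (KO) list. A peak was called WT specific, KO specific or shared as in the lists that the authors deposited for these classes, where a shared peak overlaps a peak of the other genotype by at least 1 bp. The gene names chose the members and no measured value entered the rule, though the choice was made with earlier results of these data known.

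Pax3 and Pax7 encode paired-box transcription factors that mark muscle progenitors and satellite cells. Six2, Six4 and Six5 encode homeodomain transcription factors, a family that binds MEF3 sites in muscle genes. Eya proteins do not bind DNA themselves: they are phosphatases that join these homeodomain factors as coactivators, and the network stands upstream of the myogenic regulators Myf5, Myod1 and Myog.

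ATAC-seq was used, in which the Tn5 transposase inserts adapters into accessible DNA. The series comprised 12 samples in 4 groups of 3: WT and Runx1KO cells, each at day 0 in growth media with 20% serum (FBS) and at day 2 in differentiation media. The peak lists cover the growth media groups, and cells at day 2 were left out (not analysed here). The labels do not say how the Runx1 gene was disrupted or whether the KO cells came from 1 clone.

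Every peak name carries the label of replicate 1 of its genotype, so each value below comes from 1 library, has no replicate error and allows no test between genotypes. Sequencing depth is unknown, so depth and genotype cannot be told apart in any difference between the lists. The fold over local background and the −log10 q printed for each peak are the authors' own values and rank a peak within its own list. Around Runx1, the targeted gene, there were 19 peaks in WT and 12 in KO, which is no direct readout of the disrupted allele. Of 6 myoblast marker genes, 5 had a peak in each list, and the exception was Myf5, with no peak in either. Of 15 markers of fibroblasts, leukocytes, endothelium, epithelium and adipocytes, 10 had a WT peak and 8 a KO peak. Of all protein-coding genes, 64.6% had a WT peak and 60.8% a KO peak. All 3 fibroblast and all 3 endothelium markers had a peak in both lists, and none of the 3 leukocyte markers had one. Among the 15, only Krt14 had a peak within 1 kb of a gene end, against 3 of the 6 myoblast markers in each list. How many of all genes have such a peak was not computed.

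Promoter sequences are shown first, because the members differed at their starts. RefSeq windows of assembly GRCm38.p6, the build that the processing notes call mm10, were matched by symbol for 6 of the 9 genes, Pax7, Six2, Six4, Six5, Eya3 and Eya4, which have 8 windows in all. Each window spans 250 bases before and 50 after an annotated start, and the 250 bases before the start are printed here, 5′ to 3′ on the gene's own strand. Capitals mark a match to a motif searched below. Eya3 stands for a start under a peak of both lists, on the plus strand at chr4:132638796-132639045.
Eya3: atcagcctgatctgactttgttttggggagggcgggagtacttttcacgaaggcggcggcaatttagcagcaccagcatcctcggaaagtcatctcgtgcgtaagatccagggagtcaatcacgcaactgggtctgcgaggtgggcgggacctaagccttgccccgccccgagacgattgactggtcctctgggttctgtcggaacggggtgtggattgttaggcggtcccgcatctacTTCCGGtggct
Six4 has 2 annotated starts on the minus strand, whose windows both overlap 1 shared peak, at chr12:73113426-73113675 for the outer and chr12:73113246-73113495 for the inner window.
Six4 outer: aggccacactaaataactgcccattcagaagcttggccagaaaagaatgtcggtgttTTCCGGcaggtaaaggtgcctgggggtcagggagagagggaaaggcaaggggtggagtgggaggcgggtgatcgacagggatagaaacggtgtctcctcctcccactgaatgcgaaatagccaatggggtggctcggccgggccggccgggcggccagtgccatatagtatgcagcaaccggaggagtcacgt
Six4 inner: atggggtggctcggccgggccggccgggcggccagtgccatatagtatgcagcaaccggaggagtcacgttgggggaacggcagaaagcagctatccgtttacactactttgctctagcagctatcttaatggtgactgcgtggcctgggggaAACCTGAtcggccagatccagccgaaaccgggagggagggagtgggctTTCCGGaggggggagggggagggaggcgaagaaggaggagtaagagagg
Six5 is shown because the peak before it reached the window in the KO list alone, on the plus strand at chr7:19094294-19094543.
Six5: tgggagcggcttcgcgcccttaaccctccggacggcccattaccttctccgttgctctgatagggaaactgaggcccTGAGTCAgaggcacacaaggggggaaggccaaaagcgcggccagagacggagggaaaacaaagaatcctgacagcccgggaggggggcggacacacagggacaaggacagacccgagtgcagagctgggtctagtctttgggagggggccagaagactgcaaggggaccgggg
Eya4 is shown because its peak at the start was WT specific, on the minus strand at chr10:23349944-23350193.
Eya4: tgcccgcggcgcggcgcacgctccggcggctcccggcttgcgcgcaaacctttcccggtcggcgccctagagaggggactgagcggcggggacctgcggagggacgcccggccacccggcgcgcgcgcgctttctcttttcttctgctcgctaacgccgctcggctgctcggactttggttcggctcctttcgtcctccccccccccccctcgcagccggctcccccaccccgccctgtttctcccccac
Mnat1, a subunit of the CDK-activating kinase and the neighbour of Six4, is shown because the WT specific peak joined to Six4 lay on the start of Mnat1, on the plus strand at chr12:73123467-73123716.
Mnat1: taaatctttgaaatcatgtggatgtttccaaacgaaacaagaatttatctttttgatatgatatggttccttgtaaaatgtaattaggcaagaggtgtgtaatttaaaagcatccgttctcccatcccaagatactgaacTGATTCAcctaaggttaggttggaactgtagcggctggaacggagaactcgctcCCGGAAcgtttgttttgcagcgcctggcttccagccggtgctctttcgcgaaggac
Six2 is shown as a CpG-dense start with no peak, on the minus strand at chr17:85688255-85688504.
Six2: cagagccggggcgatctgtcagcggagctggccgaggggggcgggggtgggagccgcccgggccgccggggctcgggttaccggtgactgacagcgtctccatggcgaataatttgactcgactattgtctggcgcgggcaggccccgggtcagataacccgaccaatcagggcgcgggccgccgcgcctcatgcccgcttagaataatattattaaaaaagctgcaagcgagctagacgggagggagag

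Open chromatin was unevenly spread over the 9 genes. Eya4 held 10 peaks in each list, Eya1 held 4 in WT and 2 in KO, and Eya3 held 3 in each. Six4 held 3 in WT and 2 in KO, and Six5 held 2 in WT and 1 in KO. Pax7 and Eya2 each held 1 peak in WT and none in KO, Pax3 held none in WT and 1 in KO, and Six2 had no peak in either list. The 4 Eya genes thus accounted for 18 of the 24 WT peaks and 15 of the 19 KO peaks. Eya1, Eya2 and Eya4 were also the longest of the 9 genes, at 142.1, 176.7 and 247.9 kb, and these counts were not scaled to length. A peak centred within 1 kb of a gene end was found at Six4, Six5, Eya3 and Eya4 in WT, 4 genes. In KO it was found at the first 3 of these. No share over all genes was computed for gene ends, so these counts are a description only.

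**Figure D1:**
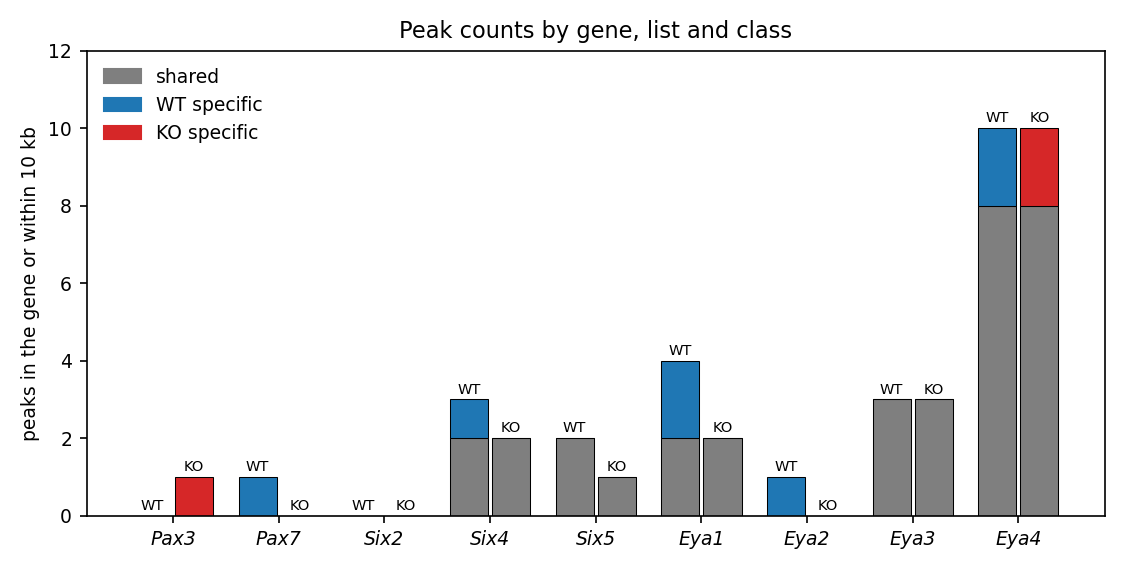
Number of peaks in each gene or within 10 kb of it (vertical axis) for the 9 genes (horizontal axis), with the WT list as the left bar and the KO list as the right bar, coloured by class. Eya4 holds 10 peaks in each list, 8 of them shared, and Six2 has none.

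Of the members, 8 of 9 (88.9%) had a peak in at least 1 list, where 65.8% of 21627 protein-coding genes did. A WT peak was found at 7 members (64.6% of all genes) and a KO peak at 6 (60.8% of all genes). A peak in a single list was found at 3 members, Pax3, Pax7 and Eya2, where 6.1% of all genes had this pattern. At least 10 WT peaks, as at Eya4, were found at 1.05% of all genes. The members were long, with a median gene length of 95.9 kb against 17.3 kb for all protein-coding genes, and genes of like length were not compared, so these shares are a description only.

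Peaks without a partner made up 7 of the 24 WT peaks at the members (29.2%, exact binomial 95% interval 12.6 to 51.1, over peaks and not over samples), and 27.3% of all WT peaks. They made up 3 of the 19 KO peaks (15.8%, interval 3.38 to 39.6), and 9.59% of all KO peaks. Both intervals hold the share of the whole list, so by the rule of 10 kb neither count stood apart from it. A WT specific peak was found at 5 members, Pax7, Six4, Eya1, Eya2 and Eya4, and at 25.3% of all protein-coding genes. A KO specific peak was found at Pax3 and Eya4, and at 7.45% of all genes. Eya4 alone had both kinds, as did 3.33% of all genes.

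Every specific peak at the members lay under the median −log10 q of its list, which was 16.1 in WT and 17.6 in KO. Of all specific peaks 88.7% lay there in WT and 92.4% in KO, so the members' 7 of 7 and 3 of 3 are near the share of the whole lists. The 7 WT specific peaks had a −log10 q from 1.47 to 15.4 and the 17 shared WT peaks from 7.64 to 52.5. The 3 KO specific peaks ranged from 5.39 to 6.21 and the 16 shared KO peaks from 5.16 to 52.3. The classes therefore overlapped in strength in both lists. Specific peaks were also narrow: the median width was 228 bp for the WT specific and 361 bp for the shared WT peaks, and 217 bp and 379 bp in the KO list. All 17 shared WT peaks had a single KO partner, and the summits of the partners lay from 3 to 137 bp apart, with a median of 34 bp.

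**Figure D2:**
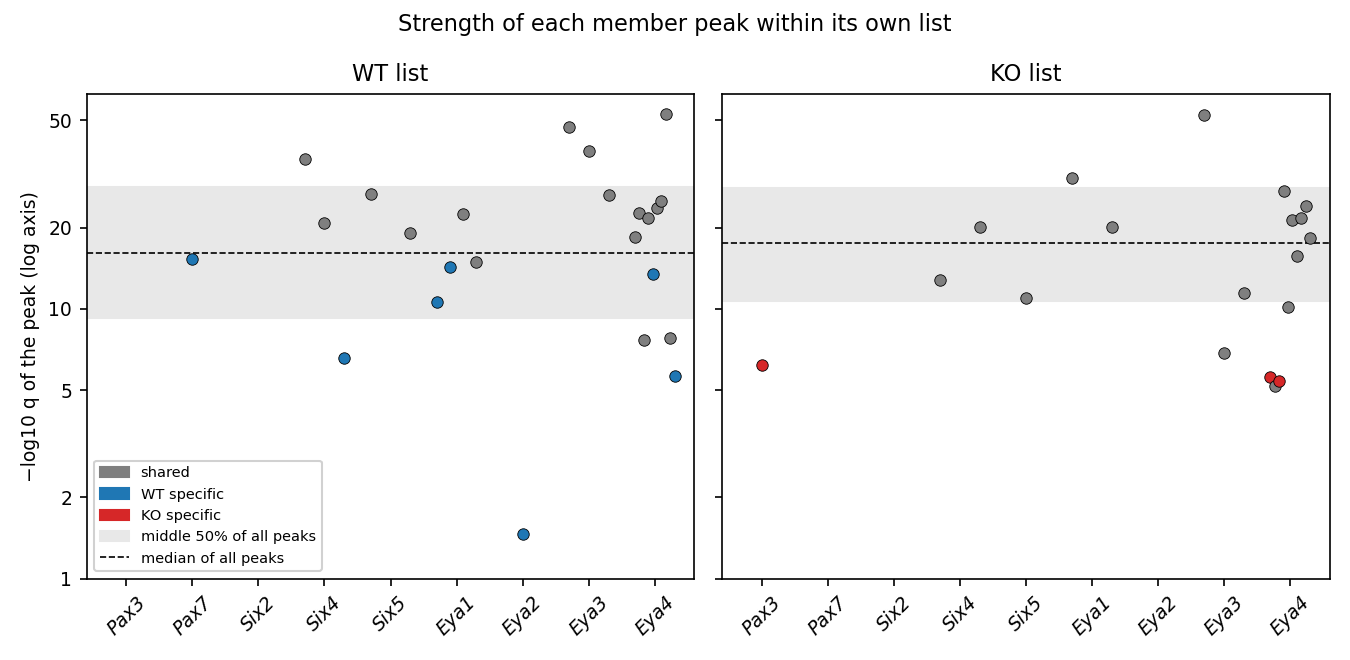
The −log10 q of each peak (vertical log axis) at the 9 genes (horizontal axis) in the WT list (left) and the KO list (right), with the middle 50% of all peaks of that list in grey and its median as a dashed line. All 7 WT specific and all 3 KO specific peaks lie under the dashed line of their list, and the weakest is the WT peak at Eya2, at 1.47.

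Pax3 (chr1:78101267-78197136) and Pax7 (chr4:139737059-139833530) each had a single peak, in opposite lists, and neither lay at a gene end. The Pax7 peak at chr4:139771191-139771414 was WT specific, 224 bp wide, with a fold of 8.83 and a −log10 q of 15.4. It lay in the gene, 34.2 kb from the nearer end, and 47.6% of WT peaks ranked below it. Its −log10 q was the highest of any specific peak at the members. In its decile of the WT list, 26.6% of peaks were WT specific. The nearest KO peak outside Pax7, at chr4:139716521-139716774, lay 20.4 kb from the gene and had a −log10 q of 23.4.

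The Pax3 peak at chr1:78181947-78182163 was KO specific, 217 bp wide, with a fold of 5.85 and a −log10 q of 6.21. It lay in the gene, 15.1 kb from the nearer end, and only 7.56% of KO peaks ranked below it. The WT list had no peak in Pax3, and its nearest one, at chr1:78088748-78089170, lay 12.3 kb outside the gene and was itself WT specific (−log10 q 15.4). That peak falls just beyond the limit of 10 kb, so the absence of a WT peak at Pax3 depends on the limit. The promoter window of Pax7 held no peak in either list, as did that of Six2.

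Six2 (chr17:85662736-85688254), best known for keeping nephron progenitors undifferentiated, lay in a wide stretch without peaks. The nearest WT peak, at chr17:85891194-85891729 (−log10 q 27.6), and the nearest KO peak, at chr17:85891162-85891662 (−log10 q 18.4), both lay 203 kb from the gene. Within 50 kb of Six2 neither list had a peak.

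Six4, a homeodomain factor expressed in muscle, was open at its start in both lists. The gene spans chr12:73099609-73114031, and the peak over its outer start lay at chr12:73113359-73113541 in WT, with a fold of 8.72 and a −log10 q of 20.8. The KO partner at chr12:73113367-73113551 had a fold of 8.70 with a −log10 q of 20.1. Their summits were 3 bp apart. The body of Mnat1 also covers this position, so the peak belongs to both annotations.

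A second shared peak lay inside Six4, at chr12:73110330-73110951 in WT (fold 12.1, −log10 q 36.1) and chr12:73110230-73110918 in KO (fold 6.63, −log10 q 12.7). It was the strongest WT peak of the gene, with 83.5% of WT peaks below it, while 33.1% of KO peaks ranked below its partner. Without replicates and with unknown depth, these values are given side by side and were not tested against each other. The third WT peak, at chr12:73123608-73123781 (fold 6.34, −log10 q 6.56), was WT specific and lay 9.66 kb outside Six4. Its centre was 23 bp from an annotated start of Mnat1, so the rule joined to Six4 a peak that sits on a start of its neighbour. The annotated body of Mnat1 covers this peak too and begins farther upstream, so this start lies inside that body.

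Six5 (chr7:19094544-19098549), whose gene follows that of the kinase Dmpk, the site of the repeat expansion of myotonic dystrophy, had a peak just before its start and none in its body. In WT this peak lay at chr7:19093814-19094256, with a fold of 8.15 and a −log10 q of 19.1, and ended short of the promoter window. In KO it lay at chr7:19093730-19094422, with a fold of 5.75 and a −log10 q of 10.98, and covered bases 1 to 129 of the printed window. The KO interval was the wider, at 693 bp against 443 bp, and the summits were 31 bp apart.

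The other WT peak joined to Six5, at chr7:19084158-19085006 (fold 9.15, −log10 q 26.5), lay in Dmpk, 9962 bp from Six5. Its KO partner at chr7:19084092-19084857 (fold 9.59, −log10 q 35.9) had its centre 10070 bp from Six5, just outside the limit. The count of 2 WT peaks against 1 KO peak at Six5 therefore came from the limit and not from a missing KO peak. The next nearest peak inside the limit was the WT specific one at Mnat1. The next nearest outside was a shared peak 10.9 kb from Eya4, at chr10:23091730-23092315 in WT.

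Eya3 (chr4:132639025-132724765) had the strongest peak at a start among the members, and no specific peak. The peak over its start lay at chr4:132638794-132639324 in WT, with a fold of 19.0 and a −log10 q of 47.3, above 90.9% of WT peaks. In KO it lay at chr4:132638805-132639158, where the fold was 18.9 and the −log10 q 52.3, above 94.8% of KO peaks. Both intervals covered nearly the whole printed sequence, from base 1 in WT and from base 10 in KO.

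Inside Eya3 a shared peak lay 14.0 kb from the nearer end, at chr4:132652905-132653151 in WT (fold 18.1, −log10 q 38.4) and chr4:132652881-132653114 in KO (fold 6.09, −log10 q 6.87). Of WT peaks 85.4% ranked below it, and of KO peaks 9.87% ranked below its partner. The WT value is high and the KO value low within their own lists, and they were not tested against each other. The remaining shared peak of Eya3, at chr4:132732291-132732646 in WT (−log10 q 26.4) with a KO −log10 q of 11.5, lay 7.70 kb beyond the gene and inside Xkr8, which encodes a phospholipid scramblase.

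Eya1 (chr1:14168953-14311035), a gene linked to branchio-oto-renal syndrome, had 4 WT peaks, of which 2 were shared and 2 were WT specific. The shared peak in the body lay at chr1:14273973-14274187 in WT (fold 12.2, −log10 q 22.5) and chr1:14273733-14274308 in KO (fold 13.1, −log10 q 30.6). The WT interval of 215 bp fell wholly inside the KO interval of 576 bp. The other shared peak, at chr1:14309600-14310335 in WT (−log10 q 14.9) and chr1:14309669-14310239 in KO (−log10 q 20.1), lay 1.07 kb from a gene end in WT and 1.08 kb in KO.

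The WT specific peaks of Eya1 lay at chr1:14211637-14211894 in the body (fold 9.88, −log10 q 14.3) and at chr1:14159918-14160145, 8.92 kb outside the gene (fold 8.22, −log10 q 10.6). Peak names carry call numbers that rise along all 20 chromosomes in both lists and skip some values. Between the KO peaks on either side of the WT specific peaks of Eya1 no number was missing. At the other 5 WT specific peaks at least 1 KO number was missing, as at most WT specific peaks of the genome, of which 12.9% had none missing. Of the KO specific peaks, 2 of 3 lay between WT peaks with a WT number missing, and 12.6% of all KO specific peaks had none missing. A missing number may belong anywhere between the flanking peaks, which can be far off. At the Pax7 peak the nearest KO peak lay 54416 bp away.

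Eya2 (chr2:165595028-165771727) had 1 peak, WT specific, at chr2:165603781-165603945, 8.84 kb from the nearer gene end. With a fold of 3.28 and a −log10 q of 1.47 it was among the weakest of the list, above only 0.09% of WT peaks. Among WT peaks of the weakest decile by −log10 q, 71.8% were WT specific. The KO list had no peak at Eya2, and its nearest one, at chr2:165570129-165570539, lay 24.7 kb from the gene (−log10 q 21.9).

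**Figure D3:**
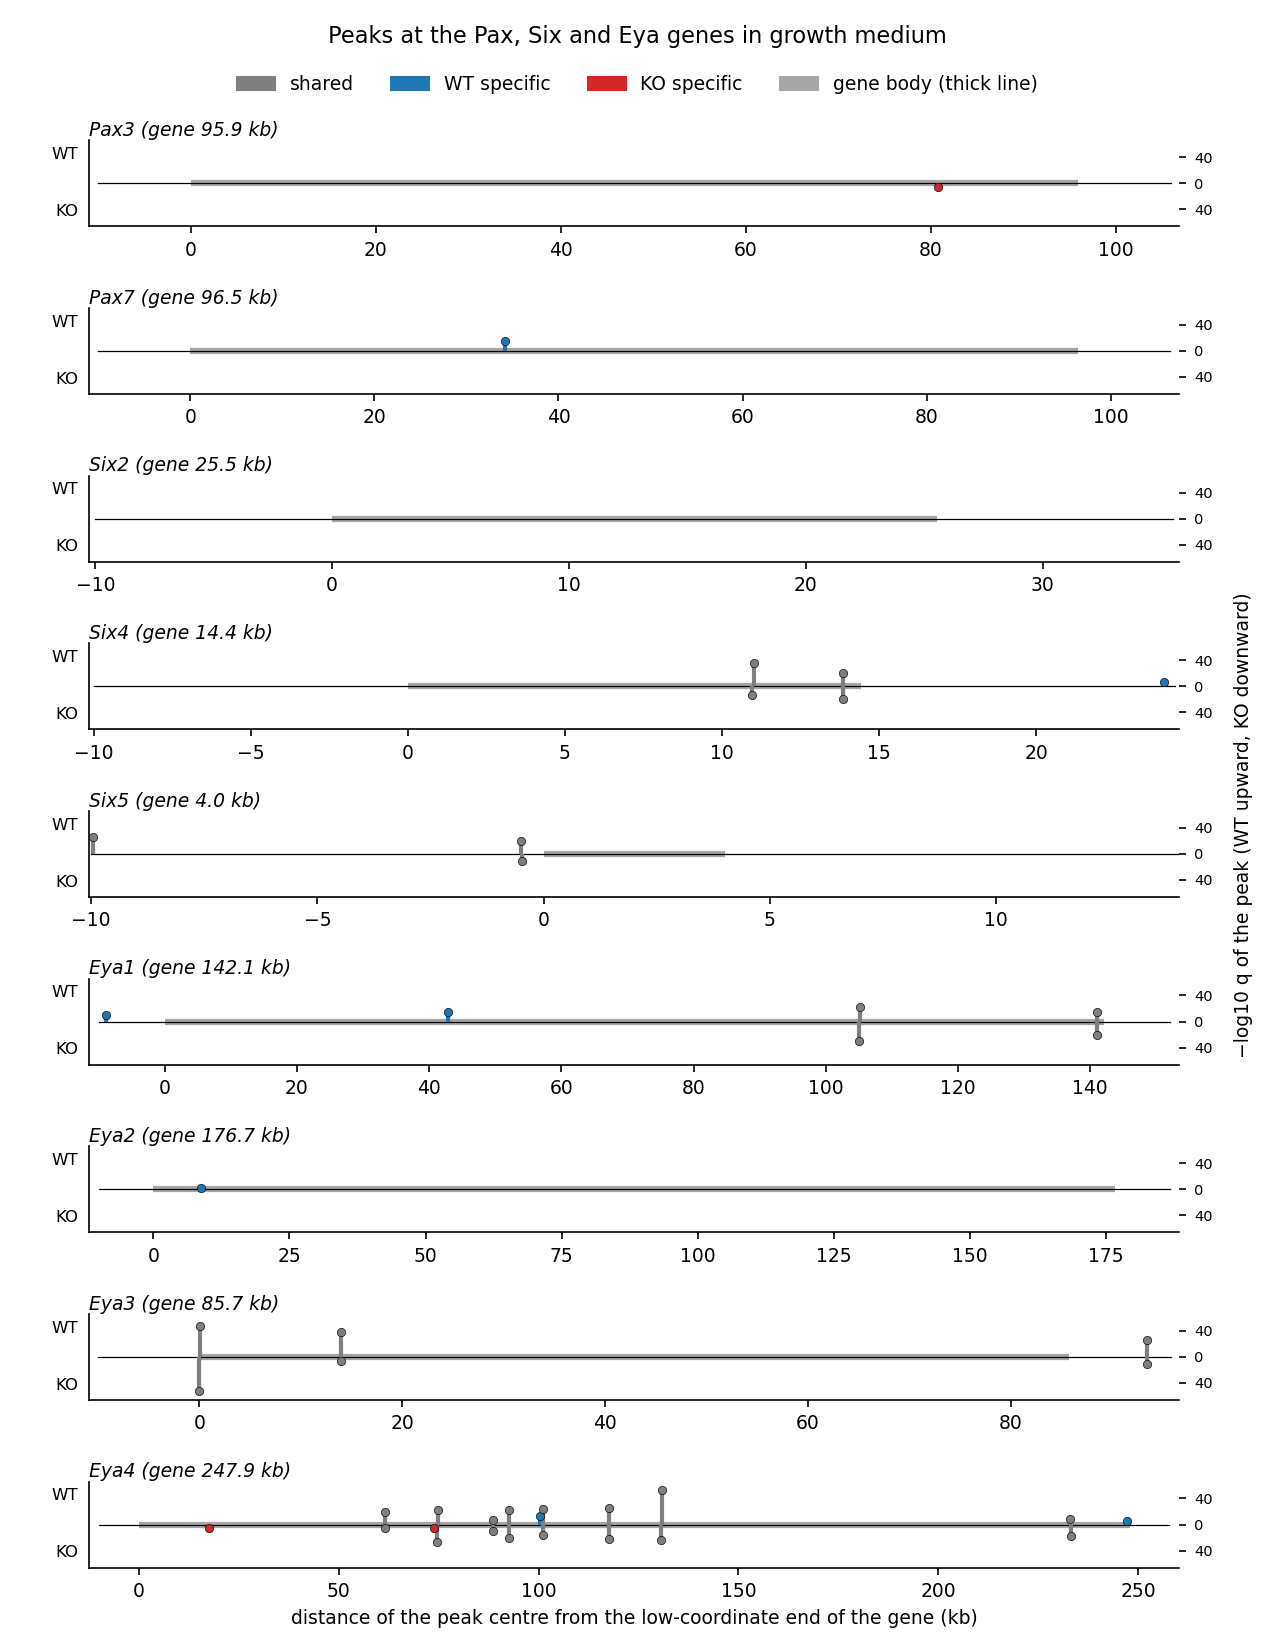
Position of each peak in kb from the low-coordinate end of the gene (horizontal axis, 1 panel per gene) and its −log10 q (vertical axis, WT upward and KO downward), with the gene body as a thick line and 10 kb drawn on either side. Most peaks pair up above and below the line, while Pax3, Pax7 and Eya2 each show 1 peak, unpaired, and Six2 shows none. Unpaired peaks also stand at Six4, Eya1 and Eya4, and at Six5, where the KO partner lies just beyond the 10 kb.

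Eya4, a gene linked to hereditary deafness and heart muscle disease, held the most peaks of the members, with 8 shared regions in a gene of 247.9 kb (chr10:23102962-23350838). Per length it did not lead: it held 3.73 WT peaks per 100 kb of gene and flanks, Six4 held 8.71 and Six5 held 8.33. The values of Six4 and Six5 rest on 3 and 2 peaks, including the peak on a start of Mnat1 and the peak in Dmpk. The start was not among the shared regions. The only peak at the start, at chr10:23350042-23350362, was WT specific, with a fold of 5.45 and a −log10 q of 5.65, and 9.32% of WT peaks ranked below it. Its centre lay 259 bp before the outer annotated start but within the annotated gene, 0.636 kb from the nearer gene end. The peak covered bases 1 to 152 of the printed sequence. In the same decile of the WT list 71.8% of peaks were WT specific. Of the 7 WT specific peaks at the members, this one alone carried the unlabelled mark, a column that repeats the peak's start, found in 10.7% of the WT specific list. Between the neighbouring KO peaks, 5 KO call numbers were missing.

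The strongest WT region of Eya4, by fold and by −log10 q, lay 116 kb downstream of the outer start. In WT it lay at chr10:23233529-23233946, with a fold of 19.7 and a −log10 q of 52.5, above 93.05% of WT peaks. Its KO partner at chr10:23233340-23233918 had a fold of 11.8 and a −log10 q of 24.1, above 67.4% of KO peaks. By fold it was the highest peak of Eya4 in both lists. By −log10 q the highest KO peak of Eya4 was another region, at chr10:23177128-23178055, with a fold of 9.82 and a −log10 q of 27.3. Its WT partner at chr10:23177492-23178136 had a fold of 10.9 and a −log10 q of 22.7. These regions lie far from the start and within the annotated gene, and exons and introns were not distinguished here.

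Of the other 6 shared regions of Eya4, 1 lay near the start, 13.9 kb downstream, with a −log10 q of 7.77 in WT and 18.4 in KO. The others lay from 129 to 185 kb downstream. Their −log10 q ranged from 7.64 to 25.2 in WT and from 5.16 to 21.8 in KO. At the region farthest from the start the fold was 11.7 in WT and 5.49 in KO, and the KO call had the lowest −log10 q of that list at any member, 5.16. No region of Eya4 was tested between the genotypes.

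Specific peaks within Eya4 lay partly beside shared ones. The WT specific peak at chr10:23203057-23203387 (fold 7.97, −log10 q 13.5) was separated by 557 bp from a shared WT peak. Between the KO peaks on either side of it 1 KO call number was missing. The KO specific peak at chr10:23176662-23176917 (fold 4.26, −log10 q 5.39) was separated by 210 bp from the KO peak of highest −log10 q in the gene, with no missing WT number. The other KO specific peak, at chr10:23120380-23120548 (fold 5.61, −log10 q 5.58), stood alone, 229 kb downstream of the start.

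**Figure D4:**
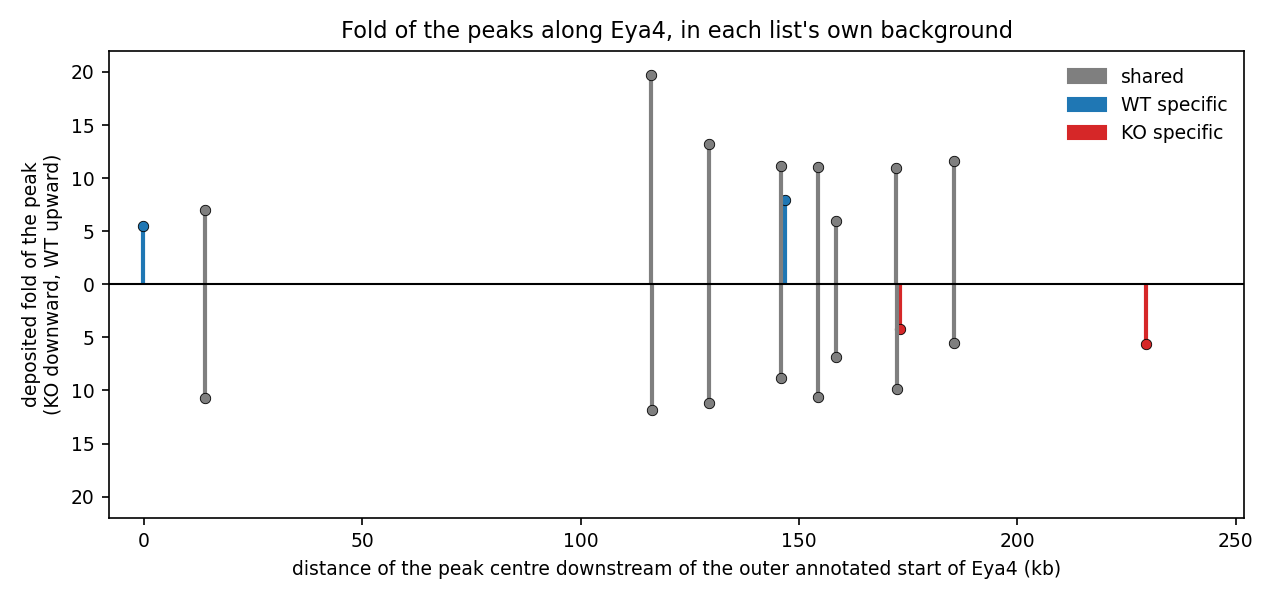
Deposited fold of each peak of Eya4 (vertical axis, WT upward and KO downward) against the distance of its centre downstream of the outer annotated start in kb (horizontal axis), coloured by class. The 8 shared regions appear in both directions, and the peak at the start is present in WT only, with a fold of 5.45.

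Peaks at gene starts were set against the base composition of the windows. A WT peak overlapped 5 of the 8 member windows, and 40.3% of the 21044 windows of protein-coding genes. These 5 belong to 3 of the 6 matched members, Six4, Eya3 and Eya4, and the 2 windows of Six4 and of Eya4 overlap the same peak. A KO peak overlapped 4 of the 8 member windows, at 3 of the 6 genes, Six4, Six5 and Eya3, and 36.9% of all windows. CpG content was measured as the observed number of CpG over that expected from the C and G of the window. Its median was 0.809 in windows with a WT peak and 0.299 in those without.

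Six2 had the most CpG-dense window of the members, at 1.13 and above 98.2% of all windows, yet no peak. Eya4 followed with 1.02 at its outer start and a peak in WT only, and Eya3 with 0.955 and a peak in both lists. The windows of Six4 (0.640 and 0.713) carried a peak in both lists, while that of Pax7 (0.581) carried none. The window of Six5 had the lowest value, 0.559. Of the 10130 windows with a value of at least 0.6, 68.7% had a WT peak and 63.4% a KO peak.

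**Figure D5:**
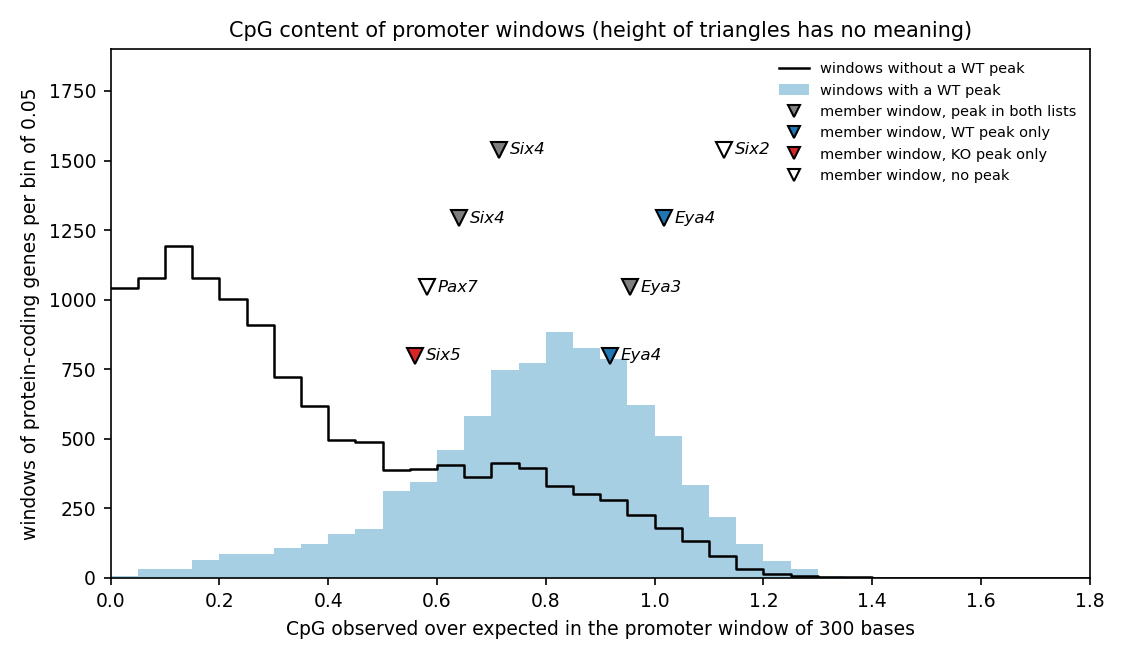
CpG observed over expected in promoter windows (horizontal axis) and the number of windows of protein-coding genes per bin (vertical axis), for windows with a WT peak (filled) and without one (line), with the 8 member windows as triangles whose height has no meaning. Six2 lies at 1.13, to the right of most windows, without a peak in either list.

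Short motifs were searched on both strands of the windows of 300 bases, as a description of their letters. The RUNX core TGTGGT had no match in any of the 8 member windows, and 14.75% of all windows held it. The ETS core CCGGAA matched in Eya3 and in both windows of Six4, and 18.9% of all windows held it. In Eya3 the match lay at bases 240 to 245 of the printed sequence, inside the peak of both lists. In Six4 the matches lay at bases 58 to 63 of the outer and 202 to 207 of the inner sequence, outside the peak of either list. The MEF3 core TCAGGTT, the site bound by the homeodomain family of Six4, matched at bases 154 to 160 of the inner Six4 sequence, outside the peak, and was held by 3.89% of all windows.

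The AP-1 site TGANTCA matched at bases 78 to 84 of the Six5 sequence, a stretch that the KO peak covered and the WT peak did not, and 7.04% of all windows held it. In the window of Mnat1 the ETS core matched at bases 195 to 200 inside the WT specific peak, and also just after the start, where a match to the TEAD core GGAATG overlapped it. An AP-1 match there lay on the edge of the peak. No member window held the TEAD core or the E-box CAGCTG, which 13.5% and 15.7% of all windows held.

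Other genes of the network were counted by the same rule. Among the Pax paralogues Pax1, Pax2, Pax4, Pax5, Pax6, Pax8 and Pax9, Pax8 and Pax9 had a peak, in both lists, and the others had none in either. Pax8 had 1 specific peak in each list. Of 7 cofactor genes, 5 had peaks in both lists, among them Paxbp1, which couples Pax3 and Pax7 to histone methylation, with 2 shared peaks. Beside these counts, 64.6% of all protein-coding genes had a WT peak and 60.8% a KO peak. Dach1 and Dach2, the corepressors of the network, had no peak.

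WT specific peaks among the cofactors were found at Sobp, with 3 of its 6 WT peaks, and at Kmt2d, a histone methyltransferase, with 1 of 4. Together the cofactors had 4 WT specific of 17 WT peaks, beside 27.3% of all WT peaks. They had 0 KO specific of 13 KO peaks, beside 9.59% of all KO peaks. Of 8 known targets, Myod1, Met, Fgfr4, Dmrt2 and Aldoa had peaks, 17 in each list, and none of these peaks was specific, beside 27.3% of all WT and 9.59% of all KO peaks. These are 5 of 8 genes, where 64.6% of all genes had a WT peak and 60.8% a KO peak. The difference was not tested. Met, the receptor that guides migrating muscle precursors, held 8 in each list. Myf5, Myog and Lbx1 had no peak in either list.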

How the data were processed

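ATAC-seq libraries of C2C12 cells were made after detergent lysis and Tn5 tagmentation, per the labels' protocols. The 5 deposited peak lists have the narrowPeak layout. Each peak carries, as deposited by the authors, a fold over local background (a ratio), a −log10 p, a −log10 q and an integer score. The build is mm10, per the submitters' processing notes. The aligner, the peak caller, the reason why some call numbers are absent and the use of replicates 2 and 3 are not given in the sources used here. Depth is unknown, so no precision can be given for single values.

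Genes, starts and promoter windows came from RefSeq tables of GRCm38.p6. Classes were read from the deposited lists, which equal an overlap of 1 bp. All specific peaks, all peaks at a start and the strongest peak of each gene and list were described singly. The members and lists were chosen with earlier results of these data known. Python 3.11.15, numpy 2.4.6, pandas 2.3.3, scipy 1.17.1 and matplotlib 3.10.9 were used. The overlap, gene and motif functions were tested on simulated data and against bedtools 2.31.1, where 13 of 13 checks passed. Alternatives varied the gene distance, the assignment, the threshold and the overlap. One gene of the related lists is not reported here.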

Additional observations from a re-analysis of the deposited data

How the results depend on the processing

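The share of WT specific peaks at the 9 genes, 29.2%, stayed within its interval under 6 of 8 alternatives, and the share of KO specific peaks, 15.8%, under 7 of 8. The share of WT specific peaks was 55.0% when peaks were given to the gene with the nearest end, with 11 WT specific of 20 WT peaks and with 12 KO peaks in all. This assignment has no distance limit. The share over all WT peaks is 27.3% under either assignment, so how near the members came to the whole list depended on the assignment. No interval was computed for the 55.0%. Keeping just the stronger 50% of each list by −log10 q left 14 WT and 9 KO peaks, of which 0 were specific (0.0% in both lists). That outcome was fixed, because every specific peak at the members lay under the median of its list. Of all specific peaks 88.7% in WT and 92.4% in KO lay there too. With 50 kb on either side there were 48 WT and 39 KO peaks, 13 of them WT specific and 5 KO specific. A wider or stricter rule changes these totals by its construction, while the cause of the share of 55.0% was not tested. With 500 bp in place of 1 kb, 1 gene and not 4 had a WT peak at a gene end. Of 234 recomputed counts for single genes, 174 stayed within 1.5 times and 60 did not. Counts of 0 that stayed at 0, as at Six2 under every setting, are among the 174, so this tally is no measure of stability. No paired analysis was possible because each list holds the values of 1 library per genotype, and for the same reason no replicate could be left out. Unknown depth limits every comparison between the lists.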
